A study of Homo sapiens with 6 samples.

Results

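The Toll-like receptors TLR1, TLR2, TLR3, TLR4, TLR5 and TLR6 and the accessory proteins LY96, UNC93B1, CD14 and CD36 were described in U87 cells, an established human glioblastoma line. They are 10 of the 27734 genes that could be matched to a symbol, chosen by name, and cover 31 RefSeq transcript accessions. Each gene is represented by its most abundant accession. The line was sequenced in 2 groups of 3 libraries, EGFR+vIII and EGFR+vIII TLR2 KO. By these labels both groups carry the epidermal growth factor receptor and vIII, its constitutively active deletion mutant, and the second group has a knockout of TLR2. The series title asks how the receptor and its mutant use pathways of host defence. The sources used here do not say how the receptors were introduced, whether the knockout is 1 clone or whether the libraries of a group are separate cultures. The p-values therefore cover only the variation among these 6 libraries, which can be technical.

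Toll-like receptors recognise conserved molecules of microbes and molecules released by damaged cells. Those at the cell surface bind mostly lipids, lipoproteins or proteins, those in endosomes bind nucleic acids, and adaptors pass their signal to NF-kB, AP-1 and interferon regulatory factors. Some need help: CD14 and LY96 present bacterial lipopolysaccharide to TLR4, CD36 assists receptors that contain TLR2, and UNC93B1 carries the nucleic acid receptors to endosomes. In the brain they are best known from microglia, and glioma cells can carry them too.

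The measurements were 1 table of the authors' own comparison. Fold changes are taken as knockout relative to EGFR+vIII, following the name of the table, and each direction below depends on that reading. The base mean, used as the level of an accession, averages reads divided by size factors over the 6 libraries. All base means together come to 11240272 normalised reads, and the size factors lie between 0.928 and 1.07. Of 8 markers of mesenchymal glioma lines all were tested, 4 rose (ANXA1, NES, CAV1 and S100A6) and 1 fell, VIM, the most abundant (base mean 126476 in the authors' deposited table). All 5 have a base mean of at least 100, where 22.7% of accessions were called higher and 24.9% lower.

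TLR2, the gene targeted by the knockout, gave no check of the labels. TLR2 (chromosome 4, 153684280 to 153710637, GRCh38) has 8 accessions, and the authors' deposited table lists all 8 at 0. CD14 (chromosome 5, 140631732 to 140633701), the lipopolysaccharide carrier, has 4 accessions, listed at 0 as well. Such a listing does not show that the genes were silent. GENCODE pairs the 8 TLR2 accessions with 3 transcripts, and 2 of these have no 50-base stretch that the other TLR2 transcripts lack (0%), while in the third 12.1% of the stretches are its own. For the 2 paired CD14 transcripts the shares are 15.5% and 2.88%. TLR1, TLR3, TLR5, TLR6 and UNC93B1, in contrast, have 1 accession each. Across the protein-coding genes of the authors' table, every accession was at 0 in 30.0% of 7924 genes with 1 accession, in 48.2% of 3418 with 4 to 7 and in 45.0% of 1178 with 8 or more. The part of the accession number in the values at 0 was not tested.

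TLR1, TLR3, TLR6 and UNC93B1 were higher in the knockout at an adjusted p under 0.05, TLR4 and LY96 were tested and did not pass, and 0 members were lower. TLR5 and CD36 have only an unadjusted p. In the authors' DESeq2 values 0 of the 6 tested members were lower at an unadjusted p under 0.05 either. Of all 10303 tested accessions 23.5% were called, 11.6% higher and 11.9% lower. The 4 called members all had a base mean above 100, and calls were more frequent there: with p-values adjusted over the 4308 accessions of at least that level, 22.7% were called higher and 24.9% lower. They are also 4 of the 5 members with a single accession, and among tested protein-coding genes with a single accession 40.6% were called in either direction. Of the 5 members with several accessions only TLR4 and LY96 were tested, and 0 were called. TLR4 and LY96 have 3 and 2 accessions, and among tested protein-coding genes with 2 to 3 accessions 13.3% were called in either direction. The median log2 fold change was 0.45 over the 6 tested members and 0.02 over all tested genes.

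The number of members called depended on the rule. The 4 calls were kept with 1 accession per gene (12.5% of all called higher), with all accessions of a gene averaged (12.6%) and with base means of at least 10 (15.2%). There were 3 calls, without TLR6, with p-values adjusted over all accessions that have one (5.79%), with the median fold change set to 0 (10.8%) and relative to neighbouring genes (4.69%). With the Wald scores divided by their central spread, 1.75, TLR1 alone was called (3.84%), and testing against a change of 1.5-fold left 0 members (1.92%), with 1 at an unadjusted p under 0.05 from the same DESeq2 values.

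**Figure D1:**
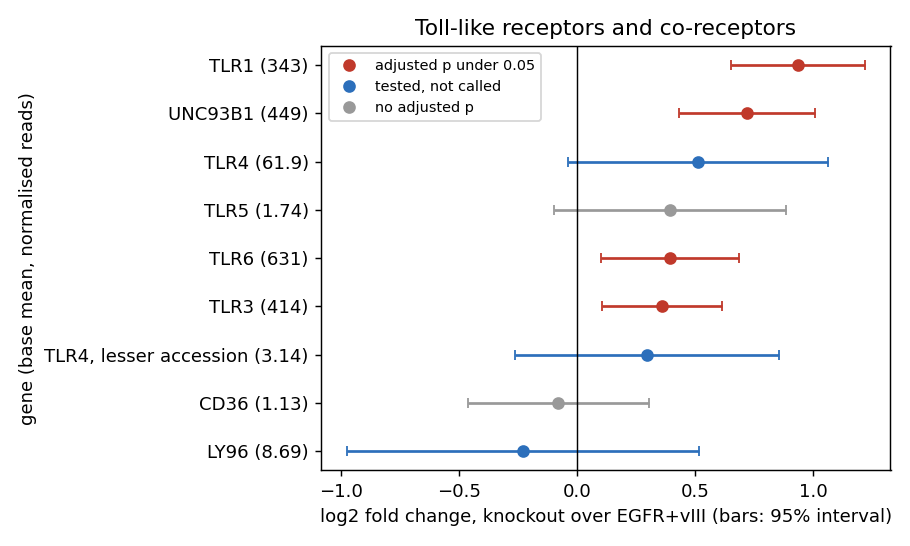
Log2 fold change (knockout over EGFR+vIII) of each accession of the receptors and co-receptors that has a p-value in the authors' deposited table, with its base mean in brackets; bars are 95% intervals from the deposited standard errors. The intervals of TLR1, UNC93B1, TLR6 and TLR3 lie above 0 and the other 5 include 0.

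TLR1, which binds triacylated lipopeptides as a partner of TLR2, showed the largest rise among the 4 called members. For TLR1 (chromosome 4, 38787569 to 38805644) the authors' deposited table gives a base mean of 343 and a log2 fold change of 0.93, with an SE of 0.14 and an adjusted p of 1.99e-09. That is a 1.91-fold rise with a 95% interval of 1.57 to 2.32, equivalent to about 236 normalised reads in EGFR+vIII and 450 in the knockout. Among 409 tested accessions with a base mean within 1.25-fold of that of TLR1, 95.8% had a lower fold change and 39.9% were called. Their median SE was 0.15.

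TLR6, the other partner of TLR2, which serves diacylated lipopeptides, rose less. The authors' deposited table gives TLR6 (chromosome 4, 38822897 to 38868390) a base mean of 631 and a log2 fold change of 0.39, with an SE of 0.15 and an adjusted p of 0.0387. This corresponds to a 1.31-fold rise with a 95% interval of 1.07 to 1.61, from about 546 to 716 normalised reads. Of 445 accessions of similar level, 83.4% had a lower fold change and 45.6% were called. The adjusted p was 0.0529 with the median fold change set to 0 and 0.068 over all accessions with a p-value. Per kilobase of the paired GENCODE transcripts the base mean was 194 for UNC93B1, 120 for TLR1, 107 for TLR6 and 0.409 for TLR5. The levels of TLR1 and TLR6 were thus close to each other and that of TLR5 was far below them. TLR3 had no paired transcript, so its level per kilobase and its shared sequence were not examined.

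TLR1 and TLR6 are paralogs 17253 bases apart, and parts of their coding sequences are identical, so that reads from there cannot be assigned to either gene with certainty. Their transcripts (2849 and 5880 bases) share 6 exact runs of at least 50 bases, all inside the coding sequence of both. The runs add up to 532 bases, with 218 in the longest, and cover 18.7% of the bases of the TLR1 transcript and 9.05% of those of TLR6. Counted instead as 50-base stretches, 8.5% of those of TLR1 occur in TLR6 transcripts, and 4.22% of those of TLR6 occur in TLR1 transcripts. The 240 bases printed here contain most of the longest run and show how alike the genes are. They are given in the sense of the transcript (minus strand, GRCh38), chr4:38797176-38797415 for TLR1 and chr4:38827803-38828042 for TLR6, with the base that differs in capitals.
TLR1: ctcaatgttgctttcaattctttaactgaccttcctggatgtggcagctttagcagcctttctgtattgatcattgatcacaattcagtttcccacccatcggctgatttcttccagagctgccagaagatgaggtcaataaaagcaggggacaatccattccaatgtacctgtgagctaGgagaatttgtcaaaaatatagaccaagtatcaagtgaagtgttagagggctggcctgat
TLR6: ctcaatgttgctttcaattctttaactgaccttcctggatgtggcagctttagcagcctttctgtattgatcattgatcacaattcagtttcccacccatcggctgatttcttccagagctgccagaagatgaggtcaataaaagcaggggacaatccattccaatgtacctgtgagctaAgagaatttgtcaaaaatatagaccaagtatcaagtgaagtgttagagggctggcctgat
In this window 239 of 240 bases are identical. Of all 50-base stretches of the TLR6 transcript, 5.23% occur in transcripts of 78 other genes, TLR1 among them. The sources used here do not state how the counting treated such reads, and both fold changes are uncertain to that extent. The part of shared reads in the rises of TLR1 and TLR6 was not tested.

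TLR3, the endosomal receptor of double-stranded RNA, was also higher. Its base mean was 414 (chromosome 4, 186069156 to 186088073), and the authors' deposited table gives TLR3 a log2 fold change of 0.36, with an SE of 0.13 and an adjusted p of 0.0271. The rise was 1.28-fold with a 95% interval of 1.08 to 1.53, from about 362 to 465 normalised reads. Of 396 accessions of similar level, 77.8% had a lower fold change and 39.1% were called. With the Wald scores divided by their central spread the adjusted p of TLR3 was 0.552.

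The sequence upstream of TLR3 is shown because this gene is known to respond to interferon in many cells. The 250 bases before its RefSeq start (GRCh38.p14, plus strand, chr4:186068906-186069155) hold 2 matches of the interferon gamma activated site TTCNNNGAA, in capitals.
TLR3: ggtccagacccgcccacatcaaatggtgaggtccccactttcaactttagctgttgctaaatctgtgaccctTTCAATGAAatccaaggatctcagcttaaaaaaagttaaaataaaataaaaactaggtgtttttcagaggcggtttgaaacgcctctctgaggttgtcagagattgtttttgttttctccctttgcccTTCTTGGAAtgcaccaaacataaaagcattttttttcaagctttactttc
The matches begin at -178 and -50 relative to the start. Such a match was present in 6.57% of 35116 upstream sequences of this length, searched on both strands. Upstream sequences were at hand for 7 members (TLR2, TLR3, TLR4, TLR5, TLR6, CD14 and CD36). There were 12 such sequences, 6 for CD36 and 1 for each other member. CD14 and 1 of the CD36 sequences also held a match, so that 3 of the 12 held one. An AP-1 site, TGANTCA, was present in 6.57% of all and, among the 12, in 2, that of CD14 and the same CD36 sequence. The interferon response element (GAAA, any 2 bases, GAAA; 3.02% of all) and the kappaB site (GGG, any 2 bases, TTTCC; 1.73%) were in 0 of the member sequences. No match overlapped another, and each describes letters only.

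UNC93B1, the chaperone that TLR3 needs to leave the endoplasmic reticulum, showed the second largest rise among the called members. The authors' deposited table has UNC93B1 (chromosome 11, 67991100 to 68004097) at a base mean of 449 and a log2 fold change of 0.72, with an SE of 0.15 and an adjusted p of 9.26e-06. The rise was 1.65-fold with a 95% interval of 1.35 to 2.01, from about 340 to 559 normalised reads. Of 410 accessions of similar level, 94.9% had a lower fold change and 40.5% were called. With the scaled Wald scores its adjusted p was 0.0556. UNC93B1 shares sequence with copies elsewhere in the genome: 19.4% of its 50-base stretches also occur in transcripts of 7 relatives, UNC93B2 to UNC93B8, and its value is uncertain to the extent that their reads were counted for it.

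**Figure D2:**
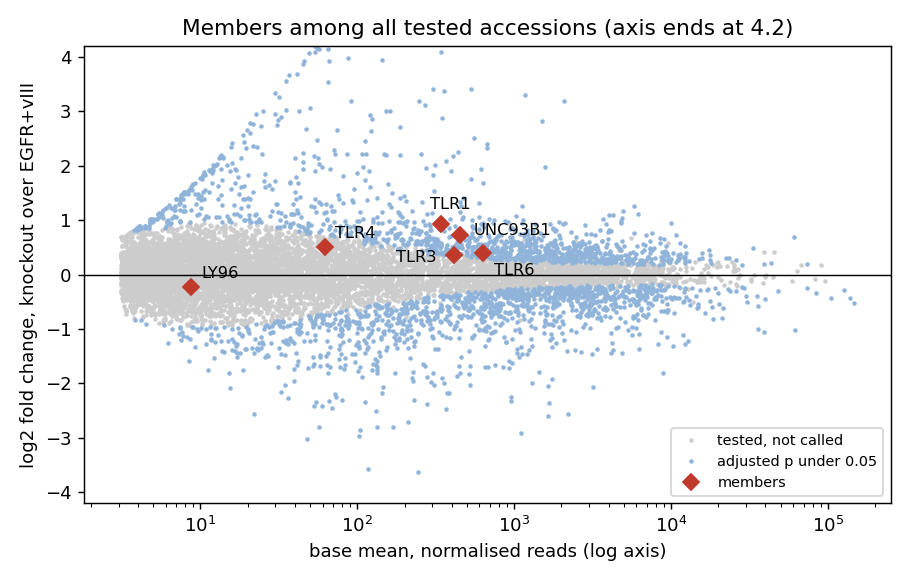
Base mean (log axis, normalised reads) against log2 fold change (knockout over EGFR+vIII) of the tested accessions of the authors' deposited table, with the 6 tested receptors and co-receptors as diamonds. TLR1 lies above 95.8% and UNC93B1 above 94.9% of accessions of similar base mean, TLR3 above 77.8%.

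Within 1 Mb, the genes beside TLR1 and TLR6 had fold changes on 1 side of 0, and those beside TLR3 mostly on the other. Within 1 Mb of TLR1 all 8 tested genes, TLR6 among them, were above 0 in the authors' deposited table, with a median of 0.38 on the log2 scale, and 3 were called higher. KLF3, a transcription factor gene, rose (log2 fold change 0.82, adjusted p 2.08e-15 in the authors' deposited table), while FAM114A1 (0.66) and WDR19 (0.28) did not pass. Around TLR6 all 9, TLR1 among them, were above 0, with a median of 0.66. TLR1 exceeded the median of its neighbours by 0.56 on the log2 scale (adjusted p 0.0293 by a normal test that adds the error of that median). TLR6 was at -0.27 relative to its neighbours (adjusted p 0.49), not distinguishable from the genes beside it.

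Around TLR3, 7 of 8 tested genes were below 0, the median was -0.33, and 3 were called lower in the authors' deposited table. CYP4V2, a fatty acid hydroxylase gene and the nearest, was at -0.45 (adjusted p 0.00145), and FAT1, a giant cadherin gene, at -0.67 (adjusted p 1.16e-16) on the log2 scale of the authors' table. TLR3 exceeded these neighbours by 0.69 (adjusted p 0.00194), more than its own fold change of 0.36. These values hold for the chosen 1 Mb. Between 1 and 2 Mb from TLR3 the tested genes were above 0 in the authors' table. IRF2 (0.35, adjusted p 0.0155), MIR3945HG (4.63, adjusted p 3.11e-48) and LOC339975 (1.23, adjusted p 0.00352) were called, and CENPU (0.08, adjusted p 0.929) was not. UNC93B1 exceeded its 16 tested neighbours, with a median of 0.20 and 1 of them called higher, by 0.52 (adjusted p 0.0245). The nearest to UNC93B1, NDUFS8, a respiratory chain gene, did not pass (0.22, adjusted p 0.243 in the authors' table). Among 1064 tested genes with 8 or 9 tested neighbours, 1.22% had all of them above 0 and 3.76% had at most 1 above 0. DNA copy number was not measured, and its part in these values was not tested.

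**Figure D3:**
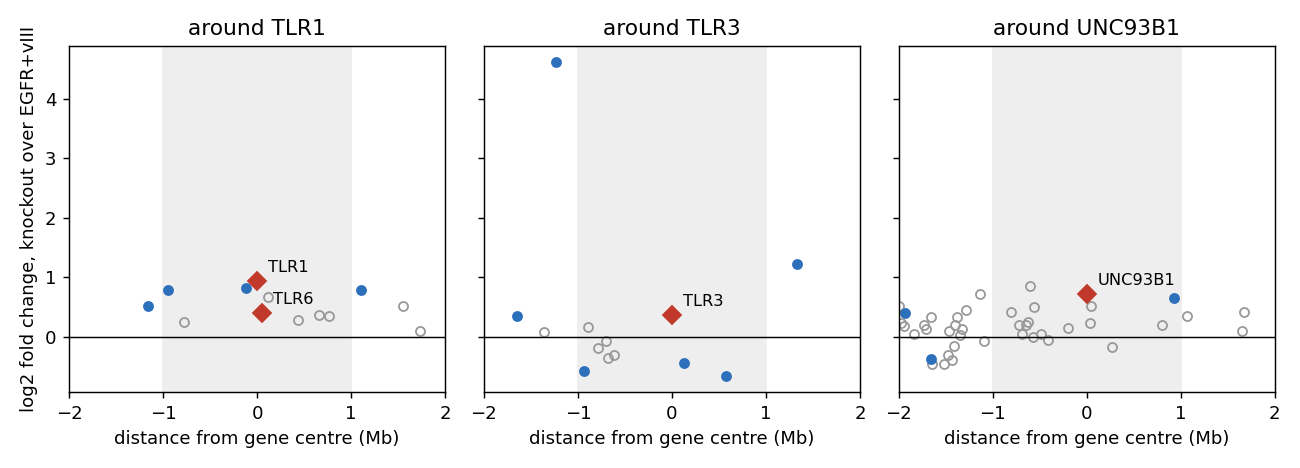
Log2 fold change (knockout over EGFR+vIII, authors' deposited table) of tested genes within 2 Mb of TLR1, TLR3 and UNC93B1 by distance from the gene; diamonds are members, filled circles other genes with an adjusted p under 0.05, open circles genes that did not pass, and the shaded band is the 1 Mb used for the neighbours' median. In the band, genes around TLR1 lie above 0, and 7 of the 8 around TLR3 lie below 0.

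TLR4, the lipopolysaccharide receptor, did not pass the test. Its main accession had a base mean of 61.9 and, in the authors' deposited table, a log2 fold change of 0.51, with an SE of 0.28 and an adjusted p of 0.198. The 95% interval ran from 0.975-fold to 2.09-fold and so includes both no change and a rise as large as that of TLR1. Of 542 accessions of similar level 20.3% were called. TLR4 (chromosome 9, 117704403 to 117724735) has a second accession with a base mean of 3.14 and another at 0. Of the 50-base stretches of these 3 transcripts, 32.6%, 4.13% and 2.10%, in the same order, are absent from the other TLR4 transcripts. The base means follow that order and are no measure of which isoform the cells made. Transcripts of another GENCODE gene, AL160272.2, hold 5.22%, 11.2% and 11.9% of the stretches of the 3 transcripts, in the order above. The values of TLR4 are uncertain to the extent that reads from there were counted otherwise.

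Whole reads per library could be recovered for accessions with few reads, because 1 read is worth a different amount in each library. Whether a library belongs to the knockout follows from the sign of the deposited fold change, and libraries cannot be tied to sample numbers. LY96, the small protein that binds lipopolysaccharide in the TLR4 complex, had 4, 8 and 9 reads in the knockout libraries and 5, 10 and 17 in EGFR+vIII. The groups overlap (two-sided exact permutation p = 0.4, where 3 against 3 libraries cannot give less than 0.1). The authors' deposited table gives LY96 (chromosome 8, 73991392 to 74099857) a log2 fold change of -0.23, with an SE of 0.38 and an adjusted p of 0.76, and the log2 ratio of the normalised group means was -0.52. Its second accession is at 0, and 12.9% of the stretches of that transcript are its own, against 40.5% for the first. The lesser TLR4 accession had 0, 1 and 13 reads in the knockout and 0, 1 and 3 in EGFR+vIII (exact permutation p = 0.9). A single knockout library thus held 13 of its 18 reads, and the groups overlap.

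TLR5, the receptor of bacterial flagellin, had reads in the knockout only. TLR5 (chromosome 1, 223109404 to 223143248) had 1, 3 and 6 reads in the knockout libraries and 0 in each EGFR+vIII library. The groups do not overlap, and the two-sided exact permutation p was 0.1, the smallest this design allows. With the empty group counted at 3 reads over its libraries, the knockout mean of TLR5 was 3.65-fold above that floor. This ratio leaves out the counting error of the knockout reads and is no lower bound. The authors' deposited table gives a log2 fold change of 0.39 (SE 0.25, unadjusted p 0.117). Of 1195 accessions of similar base mean whose reads could be recovered, 9.04% had every knockout library above every EGFR+vIII library, 5.52% had the reverse, and 120 had 0 reads in EGFR+vIII. The pattern of TLR5 was thus that of many accessions of its level.

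CD36, a scavenger receptor for fatty acids and oxidised lipids, was barely read. CD36 (chromosome 7, 80602207 to 80679274) has 9 accessions, 8 of them at 0 in the authors' deposited table. The other had 0, 0 and 2 reads in the knockout libraries and 0, 0 and 5 in EGFR+vIII, and a difference was not detectable at this depth. That accession is also the one with the most sequence of its own: 27.8% of its 50-base stretches are absent from the other CD36 transcripts, where the other accessions reach at most 5.13%.

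**Figure D4:**
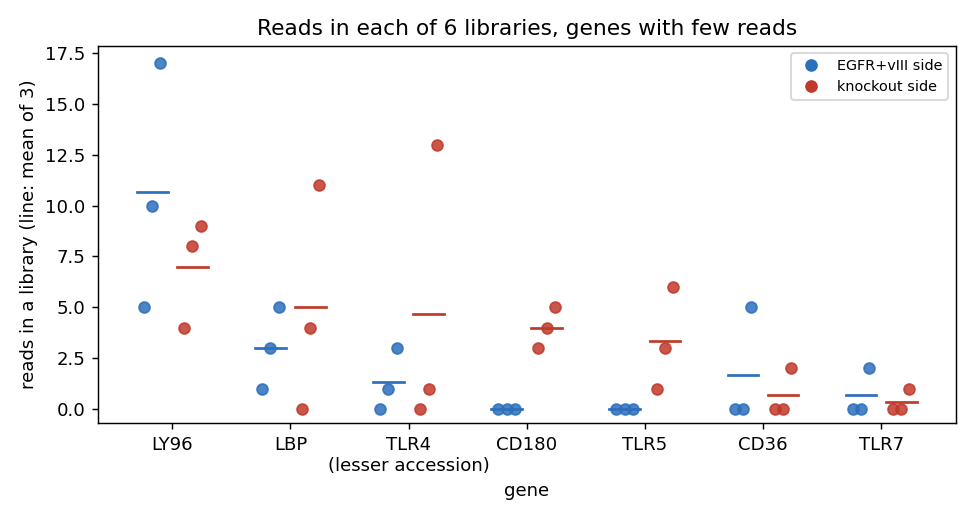
Whole reads in each of the 3 EGFR+vIII and 3 knockout libraries for receptors and co-receptors with few reads, recovered from the base means of the authors' deposited table; points are libraries and lines the means of 3. TLR5 and CD180 have 0 reads in the EGFR+vIII libraries, and the other genes overlap between the groups.

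Other receptors of the family and their partners had few reads or were listed at 0. TLR9 and LY86, with 1 accession each, and TLR8 and TLR10, with 2 and 5, were at 0 in the authors' deposited table. For TLR8 and TLR10, as for TLR2, such a listing does not show that the genes were silent. TLR7, an endosomal receptor of single-stranded RNA, had 1 read in 1 knockout library and 2 reads in 1 EGFR+vIII library. CD180, a relative of TLR4 known from B cells, had 3, 4 and 5 reads in the knockout libraries and 0 in each EGFR+vIII library (exact permutation p = 0.1). Its knockout mean was 4.28-fold above the floor used for TLR5, again no lower bound. Its base mean (2.04) is among the 1195 near that of TLR5. Of these, 9.04% had every knockout library above every EGFR+vIII library. LBP, the serum protein that passes lipopolysaccharide to CD14, had 0, 4 and 11 reads in the knockout and 1, 3 and 5 in EGFR+vIII, which overlap.

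Further genes of the pathway, 82 in 6 lists, went in both directions. Of 41 tested, 9 were higher, 3 were lower and 29 did not pass, with a median log2 fold change of 0.15. The shares of all tested accessions are those given above, 11.6% higher and 11.9% lower. With p-values adjusted over accessions with a base mean of at least 100, 9 of 26 pathway genes were higher and 4 lower. Of all accessions of that level 22.7% were called higher and 24.9% lower.

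Of 3 tested adaptors 1 rose. TICAM1, the adaptor that TLR3 uses and TLR4 shares, was at 0.43 on the log2 scale with an SE of 0.16 (adjusted p 0.0295, authors' deposited table). SARM1, a relative of the adaptors known as an NAD-cleaving enzyme, had the highest base mean of them (456) and did not pass (-0.27, adjusted p 0.165, authors' deposited table). MYD88, the adaptor of most of the receptors, has 7 accessions. The most abundant had 4 reads in 1 knockout library and 0 in the other 5 libraries, which is no measure of the level of the gene. Among 10 tested folding and trafficking genes 1 rose and 1 fell. HSP90B1, the endoplasmic reticulum chaperone of most of these receptors, was abundant (base mean 83266) and did not pass (-0.08, SE 0.09, adjusted p 0.598, authors' deposited table). CNPY4, a folding factor linked to the surface display of TLR4, was lower (-0.78, SE 0.19, adjusted p 0.000323), and CTSK, a cathepsin, was higher (0.39, SE 0.08, adjusted p 4.63e-06), both on the log2 scale of the authors' table.

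Kinases and ubiquitin ligases had 2 higher genes and 0 lower among 11 tested. IRAK2, a kinase of the complex that MYD88 assembles, was at 0.45 (SE 0.12, adjusted p 0.00152) and TAB3, a ubiquitin-binding subunit of the TAK1 complex, at 0.33 (SE 0.09, adjusted p 0.0013) on the log2 scale of the authors' table. UBE2N, the ubiquitin-conjugating enzyme of TRAF6 and the most abundant of this list (base mean 3187), did not pass (0.15, adjusted p 0.246, authors' deposited table). TRAF6, IRAK1 and MAP3K7 were at 0, but have 2, 3 and 4 accessions, so this does not show that they were silent. Of 4 tested transcription factors, RELB (0.68, SE 0.20) and FOS (0.74, SE 0.19) were higher and JUN (-0.25, SE 0.07), the most abundant, was lower on the log2 scale of the authors' table. Of 12 tested negative regulators 3 were higher and 1 lower. NFKBIA (0.83, SE 0.09), NFKBIZ (1.08, SE 0.37) and SOCS1 (1.12, SE 0.22), which NF-kB or cytokine signalling is known to induce, were higher on the log2 scale of the authors' table. RNF125, a ubiquitin ligase that acts on RNA sensors, was lower (-1.03, SE 0.20, adjusted p 4.77e-06, authors' deposited table).

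**Figure D5:**
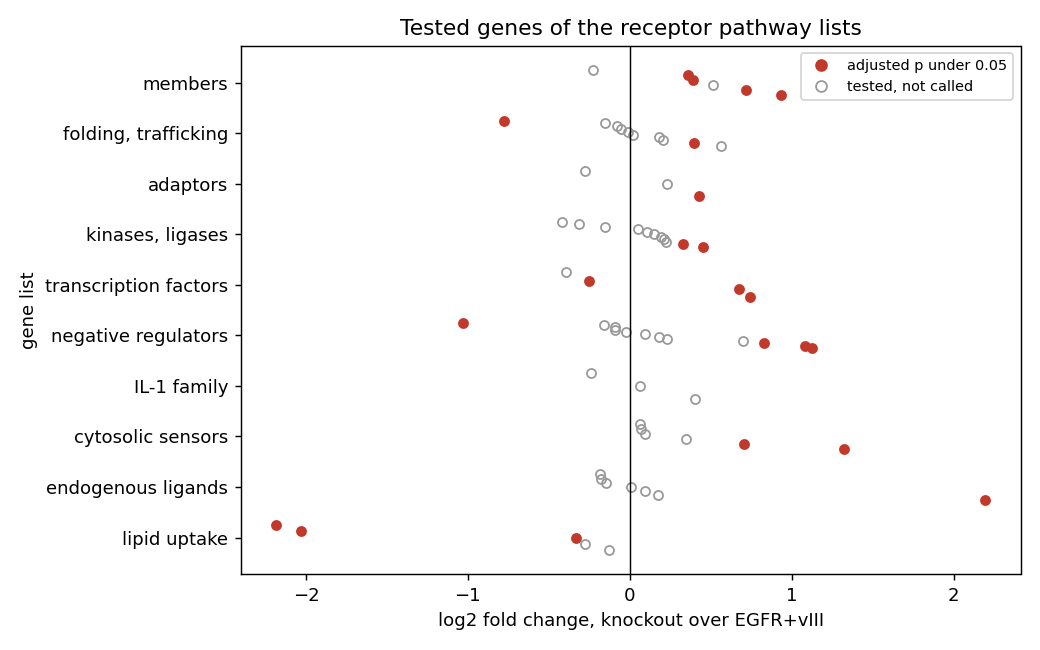
Log2 fold change (knockout over EGFR+vIII, authors' deposited table) of the tested genes of each list, 1 point per gene; filled points have an adjusted p under 0.05. The 4 called members lie above 0, and the pathway lists hold called genes on both sides.

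Cytosolic sensors and signalling partners of innate immunity, and ligands of the receptors, were counted in the same way. Of 6 tested genes of the first list 2 were higher and 0 lower, beside 11.6% and 11.9% of all tested accessions. IFIH1, a sensor of long double-stranded RNA, which is also the ligand of TLR3, was 2.51-fold higher (log2 fold change 1.33 with an SE of 0.14, adjusted p 2.12e-20, authors' deposited table). DHX58, its regulator, was at 0.71 (SE 0.27, adjusted p 0.0387), while RIGI, the sensor of short double-stranded RNA, was at 0.07 (SE 0.09, adjusted p 0.654) on the log2 scale of the authors' table. RIPK2, a kinase downstream of the bacterial sensors NOD1 and NOD2 and the most abundant of this list (base mean 5283), did not pass either (0.07, adjusted p 0.617, authors' deposited table). Of 7 tested genes listed for endogenous ligands of TLR2 or TLR4, 1 was called. The list includes HAS2, the gene of the enzyme that makes the ligand hyaluronan. S100A9, a subunit of calprotectin, was higher by 2.19 on the log2 scale (SE 0.38, adjusted p 1.42e-07, authors' deposited table) at a base mean of 13.5. Its partner S100A8 was at 0, but has 5 accessions, so this does not show that it was silent. TNC, tenascin-C of the matrix, was far more abundant (base mean 90343) and did not pass (0.17, adjusted p 0.057, authors' deposited table). Among receptors and ligands of the interleukin-1 family, whose receptors share the intracellular domain of the Toll-like receptors, 3 genes were tested (the ligands IL1A and IL1B and the receptor subunit IL1RAP). Of these 0 were called or had an unadjusted p under 0.05 in the DESeq2 values, and IL1B was at 0.07 (adjusted p 0.643, authors' deposited table).

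Lipid uptake genes related to CD36 were lower where they were called, 3 of 5 tested with 0 higher, beside 11.9% lower and 11.6% higher of all tested accessions. MSR1, a scavenger receptor of macrophages, was at -2.18 (SE 0.23, adjusted p 1.56e-20) and FABP4, a fatty acid carrier, at -2.03 (SE 0.36, adjusted p 3.41e-07) on the log2 scale of the authors' table. SCARB2, a lysosomal relative of CD36 and the most abundant of these genes, was at -0.33 (SE 0.11, adjusted p 0.0129, authors' deposited table).

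Of 12 markers of microglia and macrophages, 2 had reads, with base means that sum to 108. LAPTM5 was higher by 3.92 on the log2 scale (SE 0.33, adjusted p 5.02e-30), and CD68 did not pass (-0.68, SE 0.32, adjusted p 0.113, authors' deposited table). PTPRC, AIF1, ITGAM, CSF1R and TYROBP are among the 10 at 0, and each of the 10 has several accessions, as TLR2 and CD14 do. Of 6 endothelial markers 3 were tested and 0 called in the DESeq2 values (PECAM1 alone had an unadjusted p under 0.05), with KDR the most abundant (base mean 556, log2 fold change -0.13, authors' deposited table). The part of other cells in the receptors' values was not tested, and in bulk RNA fewer cells of a type and less RNA per cell cannot be told apart.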

How the data were processed

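RNA of 6 U87 libraries, 3 per group, was sequenced. The submitters' processing notes name STAR, DESeq2 and hg38; the sources used here give no versions, counter or annotation release. The authors deposited 1 line per RefSeq accession: per the file headers, a base mean (a signal of abundance, from counts divided by size factors), a log2 fold change with its SE, a Wald score, a p-value and an adjusted p-value. The score is the fold change divided by its SE (largest gap 5.39e-07), and the adjusted p follows Benjamini-Hochberg over 10303 accessions (largest gap 4.48e-07). The largest SE is 0.38 even at few reads, so the fold changes are shrunken and understate changes of rarely read accessions.

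Accessions were matched to symbols and positions with RefSeq on GRCh38.p14 (98.8% of 67933 matched). A count test needs values per library, so the deposited adjusted p under 0.05 made the calls. Intervals are 95% intervals from the deposited SE. Neighbours are tested genes within 1 Mb. Reads per library were solved for base means up to 9 within 1e-09, with 1 solution for each gene given; all 3384 accessions below 4 reads' worth were whole within 1e-06. Counts cover counting error only, and floors only that of the group without reads. Transcripts were compared in GENCODE 29 by 50-base stretches, a chosen length since the sources used here do not give the read length. The steps were tested on simulated data (Python 3.11.15, scipy 1.17.1).

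The members and lists were chosen with earlier results of these data known. Named are all members, each list's called genes and its gene with the highest base mean, and up to 4 of the nearest tested genes within 1 Mb of a called member. CD180, TLR7, MYD88, RIGI, CD68, PECAM1, IL1A, IL1RAP, HAS2 and the genes named at 0 were added after their values were seen. IRF2, MIR3945HG, LOC339975 and CENPU, between 1 and 2 Mb from TLR3, fell outside that rule and were added in the same way. No gene was named for a pattern like that of a member, since values per library exist only for rarely read genes. Alternatives changed the null, the scaling of the scores, the accessions adjusted over, the filter on base means, the centring, the comparison with neighbours and the accession used.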

Additional observations from a re-analysis of the deposited data

How the results depend on the processing

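Over 9 alternatives the number of members called was 3 or 4 except in 2, and none called a member lower. It was 0 when the change had to exceed 1.5-fold (DESeq2 values, 1 member at an unadjusted p under 0.05) and 1 with the Wald scores divided by their central spread. Of the 41 tested pathway genes 12 were called, beside 23.5% of all tested accessions in either direction. Beyond 1.5-fold 0 were called (3.96% of all), with 2 higher and 1 lower at an unadjusted p under 0.05. There were 4 calls among the 41 with scaled scores (8.64% of all). Relative to neighbouring genes 6 of 38 were called (10.4% of all), and with base means of at least 100, 13 of 26 (47.6% of all). TLR6 turned to -0.27 relative to neighbouring genes (adjusted p 0.49; 0.0208 to 1 over its 9 alternatives), and the cause was not tested. TLR1 stayed called in 8 of 9, TLR3 and UNC93B1 in 7 of 9 and TLR6 in 4 of 9. TLR4 and LY96 were called in 0 of 7 each, and TLR4 had 0 tested neighbours.

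No paired analysis was possible because the deposited table holds the authors' comparison without values per library for all genes. Leaving out a replicate was not run for the same reason. Few reads limit TLR5, CD36, LY96 and the lesser TLR4 accession, with at most 53 over 6 libraries.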

Other observations

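RNF175, a ring finger gene chosen after its values were seen, overlaps the span of TLR2 on the opposite strand. Its log2 fold change was 1.57, with an SE of 0.26, an adjusted p of 2.15e-08 and a base mean of 95.7 in the authors' deposited table. Of the exon bases of TLR2 in GENCODE 29, 0 lie within exons of RNF175. DCHS2, 521105 bases from TLR2 and also chosen after its values were seen, was at -0.75 on the log2 scale (adjusted p 0.0453, authors' deposited table). The 7 tested genes within 1 Mb of TLR2 had a median of 0.30.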
